A study of Caenorhabditis elegans with 2 samples.

Results

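The genes described here encode the main Hsp70, Hsp60 and Hsp90 chaperones of Caenorhabditis elegans, 8 of the 19973 nuclear protein-coding genes of the annotation. They are hsp-1, hsp-70, hsp-90 and hsp-110 of the cytosol, hsp-3 and hsp-4 of the endoplasmic reticulum (ER), and hsp-6 and hsp-60 of the mitochondrion. They were chosen by name after the signal of MAB-5 peaks near several of them was known, so their peak signals are given as a description and no test is made on them. All 8 names matched the annotation.

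The peaks come from chromatin immunoprecipitation and sequencing of MAB-5, the Antennapedia-class Hox protein of the posterior body, fused to enhanced green fluorescent protein (eGFP). Whole larvae of the second stage were used, with both sexes pooled, from strain OP27, genotype unc-119(ed3) III; wgIs27, in which wgIs27 is an integrated transgene carrying the tagged mab-5. Both samples belong to this 1 group, as biological replicates 1 and 2, and no control group was analysed here. Peaks in whole animals cannot be assigned to a cell type, and whether MAB-5 itself gives a peak at these genes was not tested.

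Chaperones keep other proteins folded. Hsp70 proteins bind exposed hydrophobic stretches of unfolded chains in a cycle driven by ATP, J-domain proteins stimulate that cycle, and Hsp110 proteins reset it by exchanging the nucleotide. Hsp60 forms a chamber in the mitochondrial matrix that a small co-chaperonin closes, and Hsp90 matures client kinases and receptors. In the worm, heat raises many cytosolic chaperone genes through HSF-1, which binds heat shock elements made of alternating GAA and TTC units. Misfolding in the ER and in mitochondria acts on other genes through XBP-1, ATF-6 and ATFS-1, and reporters of hsp-4 and hsp-6 are widely used to read these responses.

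The authors' final list holds 2197 peaks that passed the irreproducible discovery rate (IDR) procedure, which draws on the agreement of peak ranks between replicates. Of these, 2174 are nuclear. These peaks were the 2197 strongest of a relaxed list of 30000 made from both replicates together, and each replicate has a relaxed list of 30000 of its own. The signal score of a peak is the authors' value on a scale that the records do not state, so peaks are compared by rank within a list, rank 1 being the strongest. An IDR peak's signal is 1 pooled value with no replicate error, and read depth is unknown. A peak was given to a gene when its summit lay within the gene or 5 kb of its start.

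The sequences below are shown because they hold the summits of 5 of the 6 strongest chaperone peaks, and because 4 of them hold heat shock elements. Each is the plus strand of ce11 (WBcel235), 100 bp to either side of the summit. Capitals mark matches to a heat shock element (GAANNTTC or TTCNNGAA) and to CCACG, the core of the ER stress element, on either strand. The windows are chrIII:1619020-1619220 for hsp-60, chrIII:8447077-8447277 for hsp-110, chrV:14685668-14685868 for hsp-90, chrIV:17278466-17278666 for hsp-1 and chrX:6092085-6092285 for hsp-3. In the windows of hsp-60 and hsp-110 the capitals join 2 overlapping matches into 3 alternating units.
hsp-60: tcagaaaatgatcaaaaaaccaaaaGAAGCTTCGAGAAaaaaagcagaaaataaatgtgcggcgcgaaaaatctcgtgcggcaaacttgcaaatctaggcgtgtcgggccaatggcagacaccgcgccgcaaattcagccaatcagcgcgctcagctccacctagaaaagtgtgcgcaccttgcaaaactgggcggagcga
hsp-110: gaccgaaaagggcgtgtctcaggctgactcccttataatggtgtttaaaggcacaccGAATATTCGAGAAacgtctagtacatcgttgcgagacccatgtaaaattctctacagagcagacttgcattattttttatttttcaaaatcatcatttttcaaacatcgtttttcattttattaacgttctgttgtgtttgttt
hsp-90: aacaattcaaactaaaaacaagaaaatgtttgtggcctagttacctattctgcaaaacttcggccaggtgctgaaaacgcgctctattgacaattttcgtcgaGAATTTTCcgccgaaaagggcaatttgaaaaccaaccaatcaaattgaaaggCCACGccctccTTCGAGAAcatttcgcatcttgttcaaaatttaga
hsp-1: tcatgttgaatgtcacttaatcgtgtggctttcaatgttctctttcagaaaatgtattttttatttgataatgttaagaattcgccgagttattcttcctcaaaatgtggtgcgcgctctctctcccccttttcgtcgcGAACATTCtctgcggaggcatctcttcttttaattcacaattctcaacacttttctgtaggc
hsp-3: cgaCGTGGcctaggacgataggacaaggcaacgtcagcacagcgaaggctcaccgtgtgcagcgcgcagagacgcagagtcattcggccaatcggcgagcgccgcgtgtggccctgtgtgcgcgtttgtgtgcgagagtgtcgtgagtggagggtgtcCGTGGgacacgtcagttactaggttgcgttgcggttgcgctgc

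An IDR peak lay at 6 of the 8 chaperone genes, hsp-1, hsp-90, hsp-110, hsp-3, hsp-6 and hsp-60, and at neither hsp-70 nor hsp-4. Over all protein-coding genes the share was 20.3%. The strongest peaks of each replicate alone, as many as the IDR list holds, gave the same 6 genes, beside 19.3% of all genes with replicate 1 and 19.7% with replicate 2. In a narrower promoter window, reaching 2000 bp before the gene start and 500 bp past it, 5 of the 8 had a peak, beside 9.59% of all genes; hsp-90 was lost there because its summit lies 850 bp inside the annotated start. Among the strongest 10% of IDR peaks, 219 in number, 4 of the 8 were present, beside 2.40% of all genes, and hsp-1 missed it by rank 221 (this limit was set after the values were seen). The members were picked with these peaks known, so nothing is read from how far their counts stand from the shares of all genes.

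All 8 genes had a peak of some strength in the relaxed pooled list, as did 80.0% of all genes, and the 40 such peaks at the 8 genes were mostly weak. The strongest IDR peaks of the 6 genes had a median signal of 121. The strongest IDR peaks of all 4053 genes with one had a median of 46.7. The genes were picked with the signals at several of them known, so nothing is read from this gap. In the plot of pooled peaks by distance, the strongest peak of each of the 6 genes lies 61 to 850 bp from the annotated gene start. Lower peaks lie around it.

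**Figure D1:**
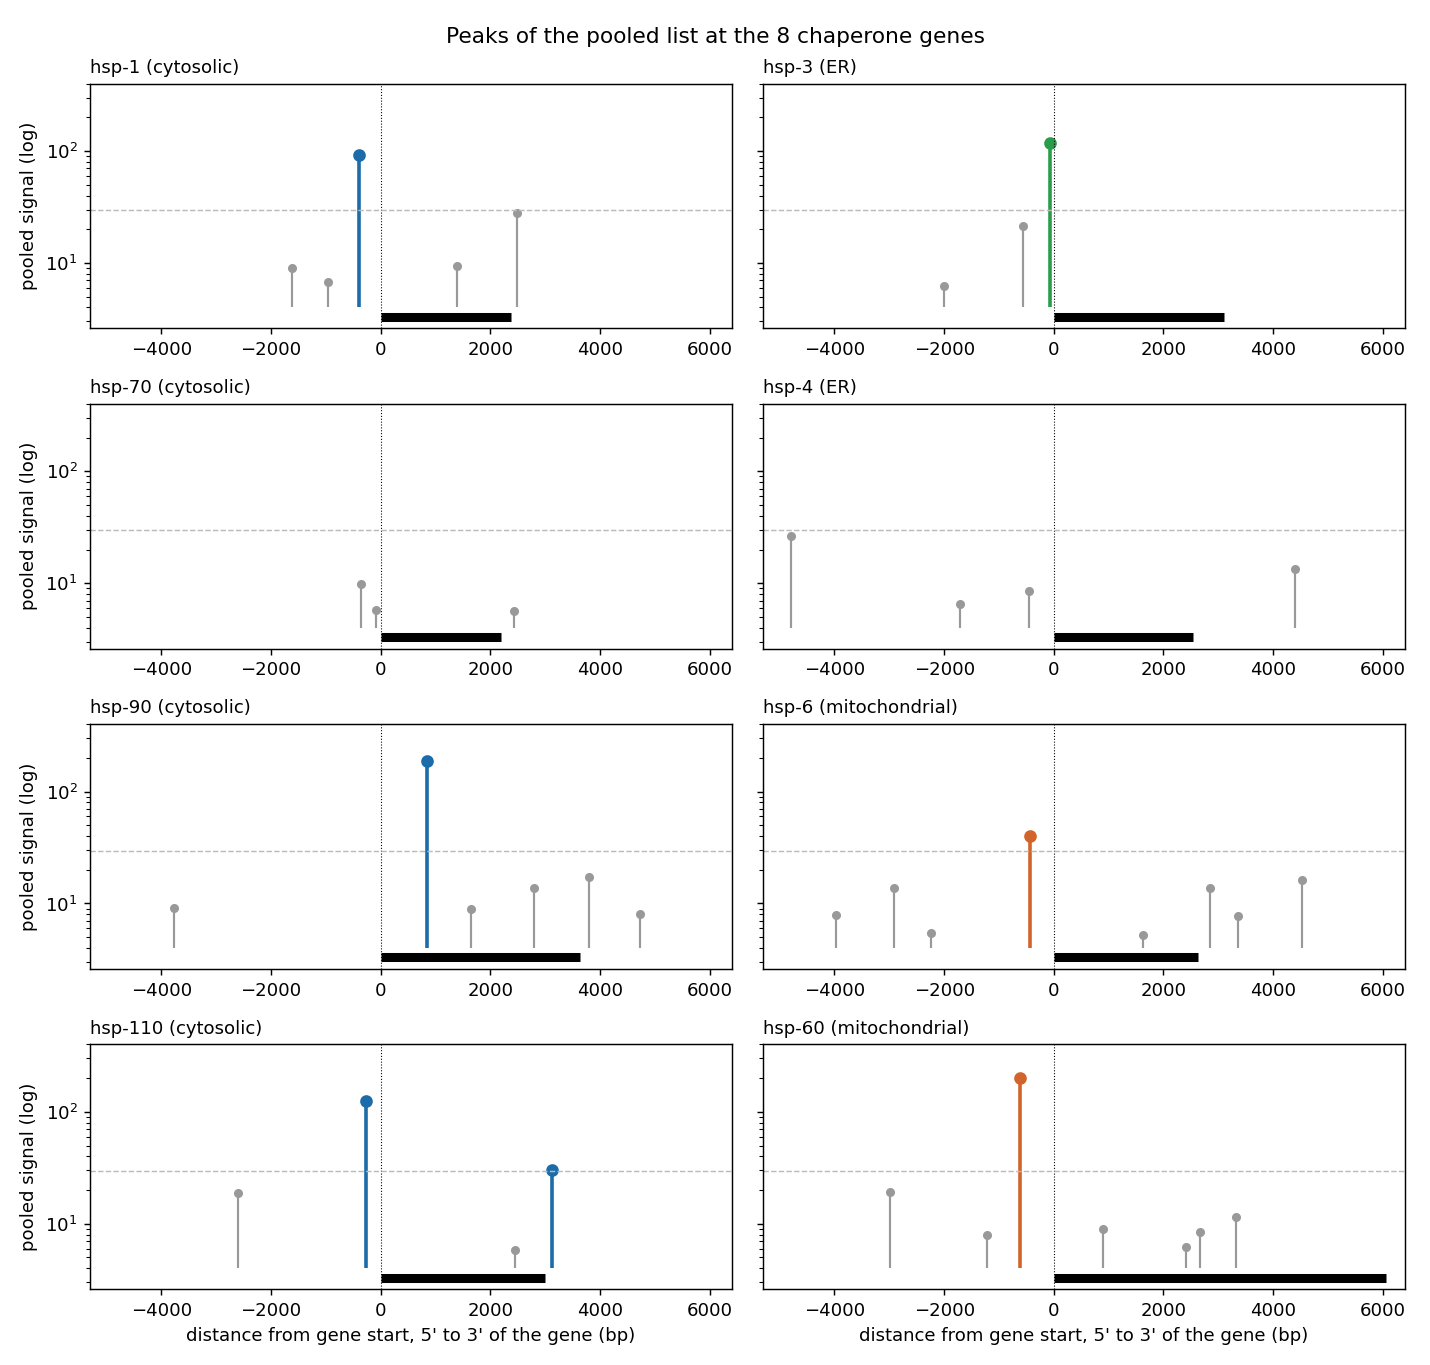
Signal of every peak of the pooled list (log axis) against distance from the annotated gene start in bp, 1 panel per gene, with the gene as a black bar; coloured stems are IDR peaks, grey stems are peaks of the relaxed list only, and the dashed line is the lowest IDR signal, 29.6. hsp-60, hsp-90, hsp-110, hsp-3 and hsp-1 have a stem between 92.5 and 202, hsp-6 one of 39.9, and hsp-70 and hsp-4 none above the line.

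The highest signal among the chaperones belonged to hsp-60 (WBGene00002025), which encodes the mitochondrial chaperonin and spans 1619742 to 1625803 on the plus strand of chromosome III. Its peak, at 1619016 to 1619263, had its summit 622 bp upstream of the gene start, in sequence between protein-coding genes. The pooled signal was 202, rank 47 of 2197. In the list of replicate 1 the same peak had a signal of 87.5 and rank 39, and in that of replicate 2 a signal of 118 and rank 47. With the mitochondrial genome left out these replicate ranks were 16 and 26.

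The hsp-60 peak lay between hsp-60 and another chaperonin gene. The summit was 191 bp upstream of Y22D7AL.10 (WBGene00021248, 1617151 to 1618929, minus strand), whose RefSeq product is the mitochondrial 10 kDa heat shock protein, the family of co-chaperonins that close the Hsp60 chamber. The starts of both genes are 813 bp apart and point away from each other, and the summit is nearer to Y22D7AL.10. The peak list cannot tell which of the pair the peak belongs to, and the same holds for the other shared peaks below.

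The other mitochondrial member, hsp-6 (WBGene00002010, chromosome V, 4824124 to 4826760, minus strand), which encodes the Hsp70 of the mitochondrial matrix, had a much weaker peak. It lay at 4827022 to 4827365, with its summit 434 bp upstream of the start, and had a pooled signal of 39.9, rank 1343. Replicate 1 gave a signal of 20.04 and rank 1007, and replicate 2 a signal of 21.3 and rank 1706. This summit was 166 bp upstream of C37H5.5, a divergent gene for a nucleolar complex protein, and fell within short non-coding genes annotated on both strands (C37H5.15 and C37H5.16). The mitochondrial pair thus held both the highest and the lowest signal among the strongest peaks of the 6 genes.

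Of the cytosolic genes, hsp-90 (WBGene00000915, chromosome V, 14684918 to 14688545, plus strand), the only cytosolic Hsp90 gene of the worm, came first. Its peak at 14685650 to 14685876 had a pooled signal of 187, rank 50. Replicate 1 gave a signal of 79.5 and rank 48, and replicate 2 a signal of 109 and rank 59. With the mitochondrial genome left out these replicate ranks were 25 and 38. The summit fell in an intron of the longer of the 2 annotated transcripts, but 392 bp upstream of the start of the shorter one, at 14686160. It was also 283 bp upstream of C47E8.4, a FAM50-family gene on the other strand whose start lies within the longer hsp-90 transcript. Which transcript is made in these larvae was not measured here.

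The gene hsp-110 (WBGene00016250, chromosome III, 8443910 to 8446909, minus strand), which encodes the nucleotide exchange factor of Hsp70, had 2 IDR peaks, the most of the 8 genes. The upstream one, at 8447072 to 8447260, had its summit 268 bp from the start and a pooled signal of 125, rank 115. Replicate 1 gave a signal of 55.1 and rank 91, and replicate 2 a signal of 69.3 and rank 146. The summit was 176 bp upstream of the divergent rpn-3, which encodes a subunit of the 19S regulatory particle of the proteasome, and the 2 gene starts are 444 bp apart. The other peak lay 134 bp past the end of hsp-110 and 169 bp upstream of ufbp-1. It sat near the bottom of the IDR list, with a signal of 30.5 and rank 2096, and ranked 2453 in replicate 1 and 1693 in replicate 2.

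The constitutive Hsp70 gene of the cytosol, hsp-1 (WBGene00002005, chromosome IV, 17278959 to 17281330, plus strand), had its peak at 17278394 to 17278737. The summit was 393 bp upstream of the start, with a pooled signal of 92.5, rank 221. Replicate 1 gave a signal of 39.2 and rank 208, and replicate 2 a signal of 49.8 and rank 307. Of the 6 strongest peaks it was the 1 with its summit outside the promoter window of every other protein-coding gene. A short non-coding gene, F26D10.23, starts 153 bp before the summit.

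No IDR peak was found at hsp-70 (WBGene00002026, chromosome I, 9320325 to 9322519, minus strand), the heat-inducible Hsp70 gene of the cytosol, which lies within the span of uggt-2 on the other strand. Its strongest pooled peak was 359 bp upstream, with a signal of 9.80 and rank 11428. Replicate 2 listed a peak at 358 bp upstream with a signal of 3.84 and rank 27160. The nearest peak of replicate 1 lay 89 bp upstream with a signal of 4.57 and rank 12331. All 3 ranks lie far below the IDR limit of 2197, and those of the pooled list and of replicate 1 are above the middle of their lists of 30000.

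The ER pair also differed. A peak at 6092076 to 6092243 on X had its summit 61 bp upstream of hsp-3 (WBGene00002007, 6089028 to 6092124, minus strand), the closest to a gene start among the 6. Its pooled signal was 117, rank 133, with a signal of 44.3 and rank 159 in replicate 1 and a signal of 74.2 and rank 122 in replicate 2. The next gene, C15H9.5, starts 1115 bp away on the other strand. The GC content of the window shown above was 63.2%, against a median of 43.3% over all nuclear IDR summits.

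The other gene for the ER Hsp70, BiP, is hsp-4 (WBGene00002008, chromosome II, 7350112 to 7352645, minus strand), and it had no IDR peak. Its nearest upstream peak in the pooled list lay 457 bp from the start, with a signal of 8.54 and rank 14402. Replicate 1 listed a peak 428 bp upstream with a signal of 6.44 and rank 6921, and replicate 2 listed none upstream nearer than 4795 bp. The strongest pooled peak in its window, with a signal of 26.5 and rank 2614, was 4795 bp upstream and 1014 bp upstream of haf-2, the next gene. It ranked 2935 in replicate 1 and 3115 in replicate 2.

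The values around the limit of the IDR list were close together. Just inside it, above a lowest IDR signal of 29.6, was the ufbp-1 side peak of hsp-110 at 30.5. Just outside were a peak 117 bp past the end of hsp-1 (signal 27.9, rank 2410) and the distant peak of hsp-4 at 26.5. The hsp-1 end peak ranked 3620 in replicate 1 and 2018 in replicate 2, so it entered the strongest 2197 of replicate 2.

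By compartment, 3 of 4 cytosolic genes, 1 of 2 ER genes and 2 of 2 mitochondrial genes had an IDR peak. The pooled signals were 92.5 to 187 for the 3 cytosolic genes, 117 for hsp-3, and 39.9 and 202 for the mitochondrial pair. The ranges overlap, and the spread within the mitochondrial pair was larger than any gap between compartments. With 2 to 4 genes in each, no order of the compartments is read from them.

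The replicates ranked these peaks alike, which the IDR procedure selects for. Over the 6 strongest peaks, the ranks in both replicates differed by a median of 1.39-fold and by at most 1.69-fold, for hsp-6. Over the 2152 nuclear IDR peaks matched in both lists the median was 1.81-fold. Summits of the 6 peaks differed between replicates by 2 bp (hsp-110) to 51 bp (hsp-90), with a median of 21 bp, against 29 bp over all matched peaks. Nothing is read from the distance of these medians from those of all peaks, because the genes were picked with peak signals known. The order hsp-60, hsp-90, hsp-110, hsp-3, hsp-1, hsp-6 was that of the pooled list and of replicate 1. In replicate 2 hsp-3 ranked above hsp-110, so these neighbours are not separated by the replicates, while hsp-6 was last in both.

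**Figure D2:**
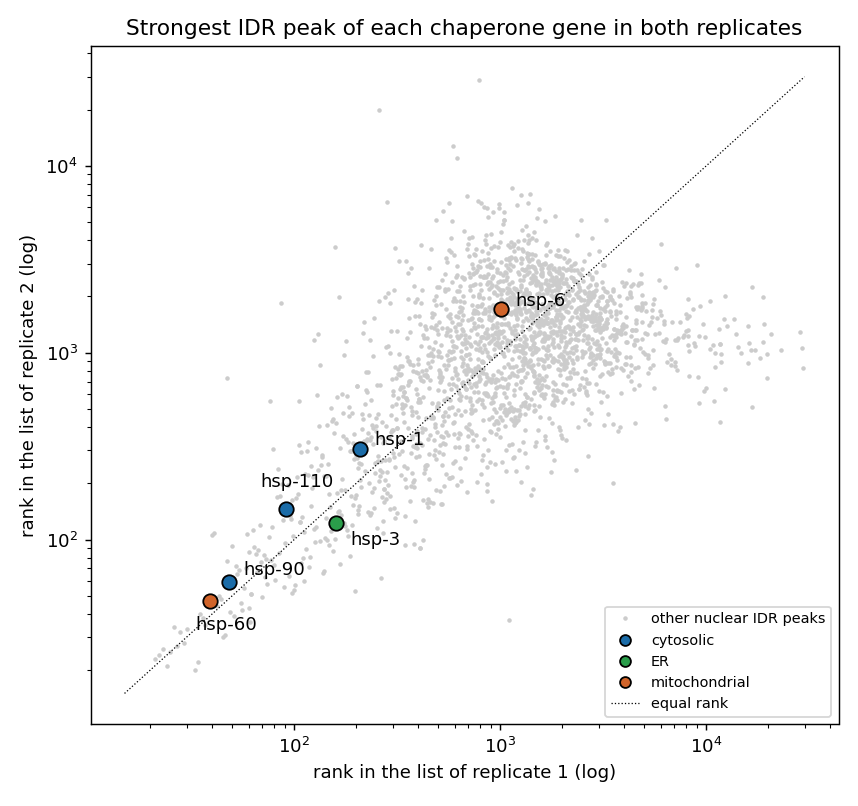
Rank of each nuclear IDR peak in the relaxed list of replicate 1 (horizontal, log axis) and of replicate 2 (vertical, log axis), with the strongest peak of 6 chaperone genes coloured by compartment. Among the 6, hsp-60 (ranks 39 and 47) and hsp-90 (48 and 59) lie lowest, near the dotted line of equal ranks. hsp-6 (1007 and 1706) lies in the dense cloud.

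Promoter peaks of other genes with the most similar ranks were found for each of the 6, by the sum of absolute differences in log10 rank over the 2 replicates. For hsp-60 these were at drr-2 (ranks 42 and 44) and ska-3 (43 and 50). For hsp-90 they were at ceh-13 (57 and 55) and mig-5 (54 and 69). For hsp-110 they were at ints-4 (92 and 144) and efl-1 (95 and 133), and for hsp-3 at ddp-1 (152 and 121) and rpb-11 (157 and 129). The peaks at egl-9 (210 and 289) and lgg-1 (186 and 298) were most like that of hsp-1, and those at unc-60 (1018 and 1717) and unc-24 (1019 and 1768) most like that of hsp-6. With only 2 replicates, such likeness describes strength alone.

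Shared peaks were counted at these genes without the same count over all nuclear IDR peaks, so sharing is not read as particular to them. Of the 6 strongest peaks, 5 also lay in the promoter window of another protein-coding gene, in each case on the opposite strand. The summit was upstream of both gene starts at hsp-60, hsp-110, hsp-6 and hsp-3. At hsp-90 this held only for the start of the shorter transcript. When each summit was given to the nearest gene start alone, only hsp-1 and hsp-3 of the 8 kept a peak, because the other 4 summits lay closer to Y22D7AL.10, rpn-3, C37H5.5 and C47E8.4.

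**Figure D3:**
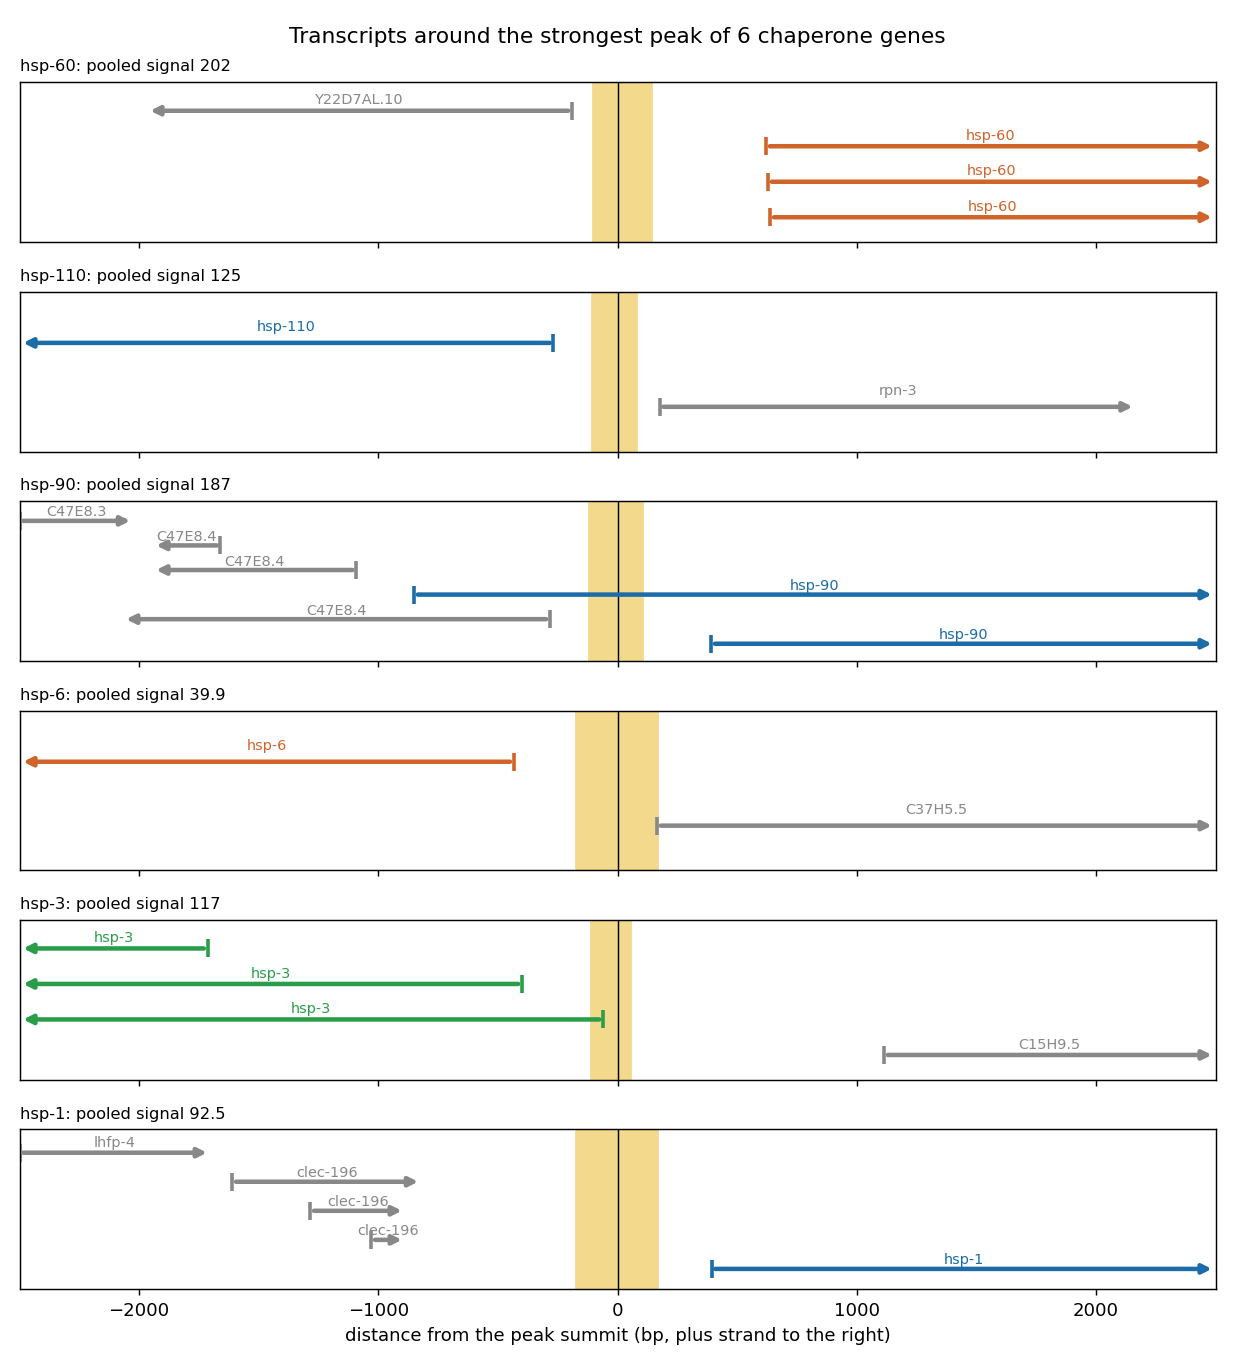
Annotated protein-coding transcripts within 2500 bp of the strongest peak of 6 chaperone genes, as arrows from start to end with the chaperone in colour and neighbours in grey; the shaded band is the peak and the vertical line its summit. At hsp-60, hsp-110, hsp-6 and hsp-3 the arrows leave the summit in opposite directions, and at hsp-90 the summit lies inside the longer transcript, between the starts of C47E8.4 and of the shorter hsp-90 transcript.

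Within 100 bp of the summit, 4 of the 6 strongest peaks held a heat shock element, those of hsp-60, hsp-110, hsp-90 and hsp-1. Of all nuclear IDR summits 13.5% held one (294 of 2174), and of those in a promoter window 15.1%. The windows of hsp-60, hsp-110 and hsp-90 held 2 matches each and that of hsp-1 held 1, as the sequences above show. Within 150 bp, 5 of the 6 held a match, beside 499 of the 2174 nuclear summits. The peaks of hsp-60 and hsp-110 held 3 alternating units in a row, which 21 of the 2174 summits did (0.966%), and they were the strongest of those 21. Those of hsp-60, hsp-110 and hsp-90 held the same 8 bases, TTCGAGAA, which 39 of the 2174 summits held (1.79%). The runs of 3 units and the shared 8 bases were looked for after the matches had been seen. A match to letters does not show that a factor binds there.

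The Hox letters searched for, TGATNNAT and TAATTA, were absent from these windows, and shorter Hox core letters were not searched. None of the 6 held TGATNNAT, the composite that Hox and PBC proteins bind jointly, which 21.8% of nuclear IDR summits held, and none held TAATTA (5.01%) or the ER response element TGACGTGG (0.874%). CCACG, whose reverse complement CGTGG ends that element, was held by the peaks of hsp-3 and hsp-90 and by 21.4% of all summits, and GAGAGA by that of hsp-1 alone and by 42.5% of all summits. Both strands were searched. With only 6 windows, nothing is read from the letters that were absent.

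Heat shock letters and peaks did not always coincide. A run of 3 units lay in the 1000 bp upstream of 6 of the 8 gene starts, hsp-1, hsp-70, hsp-90, hsp-110, hsp-6 and hsp-60, against 6.54% of all protein-coding genes. At hsp-70, without an IDR peak, the run began 73 bp upstream of the start. At hsp-90 runs began 15 and 85 bp upstream of the longer transcript, centred 859 and 929 bp respectively from the summit of the peak, and at hsp-1 the nearest run was centred 255 bp from the summit. Nearer to the summit were the runs of hsp-110, with the nearest centred 37 bp away, of hsp-60 at 69 bp and of hsp-6 at 133 bp. The upstream sequences of hsp-3 and hsp-4 held no run. These runs were also looked for after the peaks had been seen.

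The other genes of the folding network were taken from lists written with earlier results of these data known, so they are only counted. Of 25 cytosolic chaperone and co-chaperone genes 12 had an IDR peak (48%), and 14 and 12 had one among the strongest peaks of replicates 1 and 2. The share of all genes, 20.3%, is given as background only. The strongest were at the J-domain genes dnj-13 (signal 95.6, rank 208) and dnj-19 (signal 80.3, rank 315) and at bag-1, a nucleotide exchange factor gene (signal 78.03, rank 336). The Hsp90 partners sti-1, ahsa-1 and fkb-6 had signals of 57.1, 68.8 and 38.1. The heat-inducible Hsp70 genes F44E5.4 and F44E5.5, a divergent and nearly identical pair, shared a peak of signal 35.9 that ranked 2769 in replicate 1 and 882 in replicate 2. The treatment of reads that fit both copies is not stated in the labels or records.

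Of 16 ER genes 9 had an IDR peak (56.2%), and replicates 1 and 2 alone gave 10 and 9. The strongest were at stc-1 (signal 168, rank 65), whose summit lay 4698 bp downstream of its start and past the end of the gene, at the disulfide isomerase gene pdi-3 (signal 95.8, rank 207) and at the calreticulin gene crt-1 (signal 93.4, rank 219). The ER Hsp90 gene enpl-1 had a peak 37 bp upstream of its start (signal 90.3, ranks 196 and 271). Of 13 mitochondrial import, chaperone and protease genes 4 had one (30.8%), and replicates 1 and 2 alone gave 4 and 6. These were Y22D7AL.10, through the hsp-60 peak, timm-23 (signal 56.6), clpp-1 (signal 50.6) and phb-2 (signal 41.1), whose peak also counts for the ER gene T24H7.2. That list holds trap-1, which RefSeq names as an ER translocon subunit, and the cytosolic list holds hpo-13, which it names as a glucosylceramidase. Neither had an IDR peak, and both were kept in the counts.

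Of 10 stress sensor and factor genes 5 had an IDR peak, led by the ER stress factor gene atf-6 (signal 77.1, ranks 180 and 584), the ER sensor gene ire-1 (signal 59.2, 4833 bp upstream) and xbp-1 (signal 46.8). The xbp-1 peak ranked 11614 in replicate 1 and 424 in replicate 2. The heat shock factor gene hsf-1 had none, and hsf-2 had no match in the annotation. Replicate 1 alone gave 3 of the 10 and replicate 2 alone 6. In the narrower promoter window, 9 of the 25 cytosolic genes and 5 of the 16 ER genes had an IDR peak. There, 4 of the 13 mitochondrial and 5 of the 10 stress genes had one, with 9.59% of all genes as background.

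**Figure D4:**
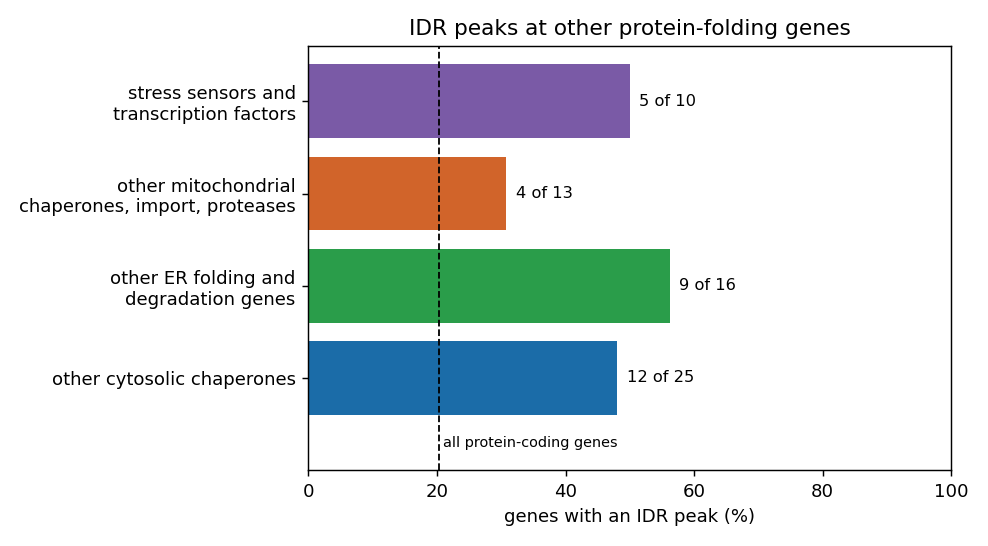
Percent of the genes of 4 lists that had an IDR summit within the gene or 5 kb of its start; the dashed line is the share of all protein-coding genes, 20.3%. The bars stand at 48%, 56.2%, 30.8% and 50%, some genes of a list share 1 peak, and no test against the line is made.

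Heat shock elements near these peaks differed in number between the lists. Of the 11 distinct strongest peaks of the other cytosolic genes 8 held an element within 100 bp of the summit, those of dnj-12, dnj-13, dnj-19, sti-1, bag-1, fkb-6, ahsa-1 and the F44E5.4 pair. Of the 9 peaks of the ER genes 2 did (dnj-27 and sel-11), and of the 5 peaks of stress factor genes 0 did. Of the 4 peaks of the mitochondrial genes 2 did, 1 of them the hsp-60 peak. The summits at dnj-12, dnj-27 and sel-11 lay 2630, 2699 and 2768 bp from the gene starts, outside the promoter window. The share over all nuclear summits was 13.5%, as above. The stricter run of 3 units was held by 3 of the 11 cytosolic peaks and 0 of the 9 ER peaks. It was held by 1 of the 4 mitochondrial peaks and 0 of the 5 stress factor peaks, beside 0.966% of all nuclear summits. No test of these counts was made.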

How the data were processed

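Per the deposited text records, the relaxed lists were made from the alignments of each replicate, or of both pooled, together with 1 further file that the records do not describe, and the IDR list was derived from these 3 lists. No label or record names the aligner, the caller of the peaks or the threshold of the IDR step. Each peak carries a signal score deposited by the authors and a −log10 q-value deposited by the authors, which reaches a ceiling of 3.66 in all 2197 IDR peaks, so only the score was used for ranks. The lists on ce10 were not used here.

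Genes came from Ensembl release 115 for WBcel235, which is ce11, and gene products and sequence from RefSeq for the same assembly. A peak was matched in a replicate as the strongest peak overlapping it by at least 1 bp. Analyses used Python 3.11.15, numpy 2.4.6 and pandas 2.3.3, with figures from matplotlib 3.10.9, and the code was tested on simulated data. The 8 members, the gene lists and the motifs were chosen with earlier results of these data known. Named were all members, neighbours sharing their strongest peaks, the strongest 3 genes of each list, and for each member the 2 peaks most alike in rank. Further genes of the lists were named after their values were seen. No test between groups was possible with 1 group. Library fragments were 150 to 350 bp long per the labels.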

Additional observations from a re-analysis of the deposited data

How the results depend on the processing

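With replicate 1 or replicate 2 left out, with a window of 2 kb, and with any base of the peak in place of the summit, the same 6 genes had a peak. The stronger 50% of the IDR list left 5, without hsp-6, so that 1 of the 2 mitochondrial genes remained. The nearest gene start left 2 of the 8 genes through 2 peaks, with 1 cytosolic and 0 mitochondrial genes, because each peak then counts for 1 gene only. The share of all genes was 11.2% with the stronger 50%, 12.2% with 2 kb, 9.59% from 2000 bp upstream to 500 bp downstream and 9.43% with the nearest start. The number of shared strongest peaks, 5, became 4 within 1000 bp of the neighbour's start and 6 with all annotated genes. Matching by 50% overlap or by summits within 100 bp moved 0 of 24 replicate ranks beyond the difference between replicates, but leaving out mitochondrial peaks moved 4 ranks, those of hsp-60 to 16 and 26 and those of hsp-90 to 25 and 38, with no shift over 24 places for any of the 6 genes. No paired analysis was possible because there is only 1 group. Unknown read depth means that a gene without an IDR peak cannot be called unbound.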
